A study of Mus musculus with 10 samples.

Results

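The red cell genes considered here are the embryonic globins Hba-x, Hbb-bh1 and Hbb-y, the heme enzyme gene Alas2, the transcription factor genes Klf1 and Gata1, the receptor gene Epor, the chaperone gene Ahsp and the membrane protein gene Rhag. All probe sets that the platform annotation gives to exactly 1 of these 9 symbols were taken. They numbered 12, for 8 genes out of 18193 genes with a probe set of their own; Ahsp was not analysed here. The RNA came from urogenital systems of mouse embryos at embryonic day 15.5, in pools of 1 to 2 urogenital systems. The 10 arrays cover 5 pools with the Wnt9b cneo allele on both chromosomes, called homozygous, and 5 control pools. The genotype label of the controls gives 1 cneo and 1 normal allele, but sample titles and the title of the series speak of wild type. The comparison asks which transcripts differ between these genotypes; the effect of cneo on the Wnt9b transcript is not labelled, and no Cre or treatment is named.

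Red cells carry oxygen on hemoglobin, which holds alpha-like and beta-like globin chains around heme. In the mouse embryo the first red cells, from the yolk sac, make the embryonic globins Hba-x, Hbb-bh1 and Hbb-y, and cells made later in the fetal liver make the adult globins. At this stage the liver is the main site of red cell formation, and the urogenital system receives its red cells through the blood. GATA1 and KLF1 switch on the red cell genes, and both are found in nucleated red cell precursors.

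Facts of the whole series bear on several values. The deposited values are linear intensities, and each array had a trimmed mean of 500. Actin, read by a probe set near its 3' end and by 1 in its middle, gave ratios of 97.7 (homozygous pool 5) and 94.8 (control pool 1); the remaining 8 ratios ran from 9.87 to 33.1. A high ratio goes with broken RNA. Homozygous pools 3 to 5 had high levels of Xist, the RNA that coats the silenced X chromosome of female cells, and the other 7 pools had low levels. For tests, intensities under 16 were raised to this floor, which touched 19.9% to 21.1% of the probe sets of a homozygous pool and 22.2% to 23.0% of those of a control pool. In bulk RNA, fewer red cells and less RNA per cell cannot be told apart.

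None of the 8 genes differed between the genotypes by limma with adjusted p under 0.05, against 0.967% of all genes (0.539% higher and 0.429% lower in homozygous pools). At an unadjusted p under 0.05 only Hba-x passed, or 1 of 8, against 15.7% of all genes, and an exact permutation test of each gene likewise gave a p under 0.05 for Hba-x alone. In none of the 8 genes were the pools of the groups fully apart, while they were in 4.71% of all genes (2.61% with the homozygous pools higher). The mean was higher in homozygous pools for 7 of the 8 genes, against 50% of all genes. The median log2 difference was 0.65 for the 8 genes and 0.00 for all genes. Among the 12 probe sets none passed in a fit over all 45037 probe sets, where 0.231% passed, and in none were the groups fully apart, against 3.29% of all probe sets. At an unadjusted p under 0.05 there were 2 of 12, against 12.3%. The genes moved in different ways between pools, and these patterns are described in turn.

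**Figure D1:**
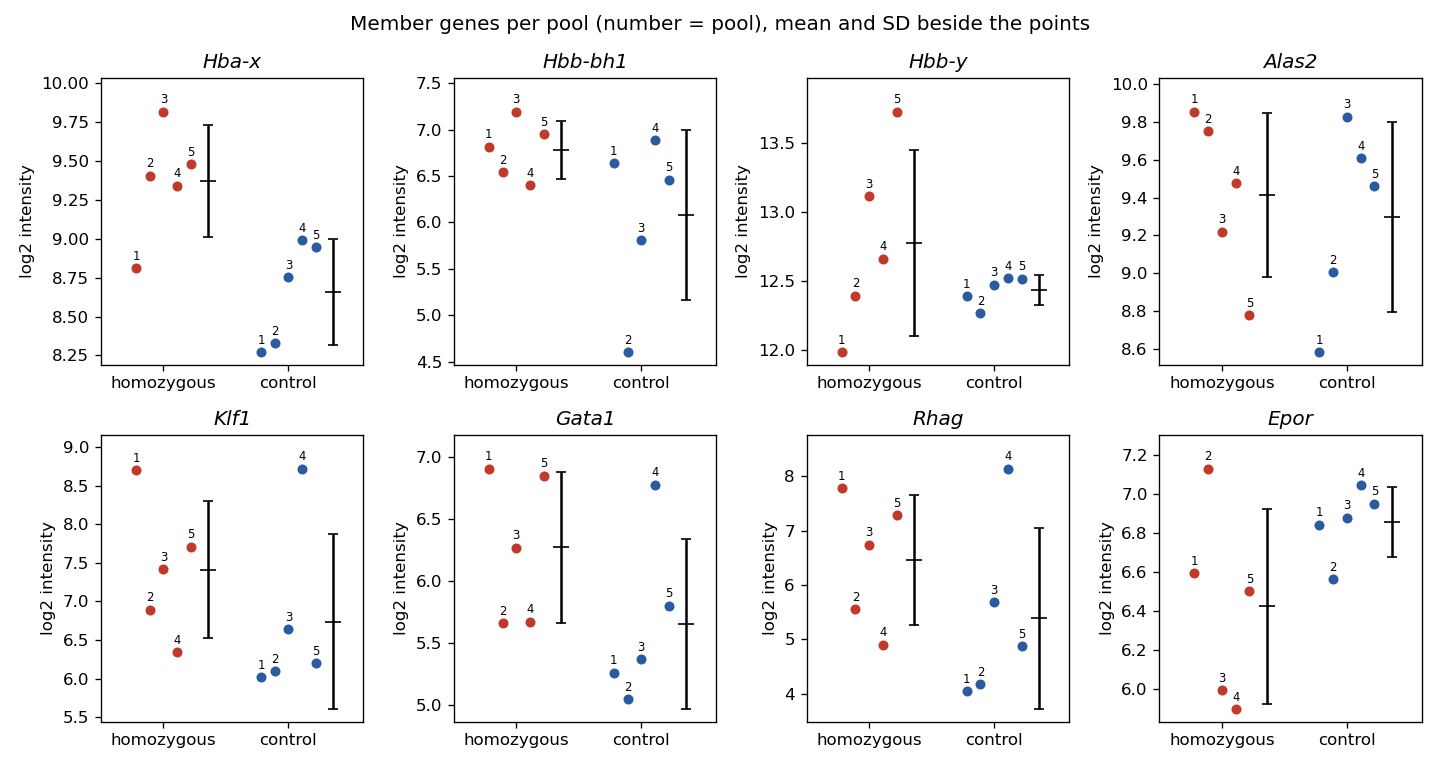
Log2 intensity of the 8 genes in each pool, homozygous on the left and control on the right of each panel; points carry the pool number, and the bar beside them is the mean with its SD over 5 pools. For Hba-x 4 of 5 homozygous pools lie above every control pool, while Klf1, Gata1 and Rhag spread widely within both groups.

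Hba-x, which encodes the embryonic alpha-like chain zeta (chromosome 11, 32276600 to 32278116, GRCm38.p6), came closest to a difference. Its intensity was 449.6, 678.6, 901.9, 648.6 and 713.1 in homozygous pools 1 to 5, against 308.5, 321.1, 431.2, 509.0 and 493.5 in control pools 1 to 5. Homozygous pools 2 to 5 lay above all control pools, and homozygous pool 1 lay below control pools 4 and 5. The mean log2 intensity was 9.37 ± 0.36 in homozygous pools and 8.66 ± 0.34 in control pools (SD, n = 5 each). The log2 difference was 0.71 ± 0.21 (SE), with a 95% interval of 0.23 to 1.20. The limma adjusted p was 0.145, and exact permutation of the pools (two-sided) gave p = 0.0238. Without the 3 Xist-high pools, or with the Xist level as a covariate, the log2 difference was 0.45 or 0.44 (limma adjusted p = 0.684 or 0.731).

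The window around its start is shown because Hba-x is the embryonic globin nearest to a difference, with that of Hbb-y for comparison. The windows run from 250 bases before to 50 bases after the start in RefSeq on GRCm38.p6, and each is read 5′ to 3′ on the strand of the gene. They span chr11:32276350-32276649 (plus strand) and chr7:103853158-103853457 (minus strand). Capitals mark GATA motifs (GATAA or GATAG after an A or a T, on either strand) and CACCC-type motifs (CCNCNCCC on either strand), the kinds of sequence that GATA1 and KLF1 are known to bind. The bare letters CACCC outside the longer pattern were neither marked nor counted.
Hba-x: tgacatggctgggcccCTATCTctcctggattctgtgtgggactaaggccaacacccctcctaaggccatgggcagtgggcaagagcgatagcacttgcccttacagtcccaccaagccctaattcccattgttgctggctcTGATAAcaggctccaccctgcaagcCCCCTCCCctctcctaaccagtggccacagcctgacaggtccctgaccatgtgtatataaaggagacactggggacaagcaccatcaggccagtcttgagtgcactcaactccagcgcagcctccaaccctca
Hbb-y: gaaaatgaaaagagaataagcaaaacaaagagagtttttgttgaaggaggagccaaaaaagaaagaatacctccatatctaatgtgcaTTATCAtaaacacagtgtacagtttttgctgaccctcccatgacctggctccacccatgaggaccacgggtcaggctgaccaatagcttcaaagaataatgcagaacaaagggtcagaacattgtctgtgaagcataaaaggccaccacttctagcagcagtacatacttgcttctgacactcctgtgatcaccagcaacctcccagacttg
The Hba-x window held 2 GATA motifs and 1 CACCC-type motif, and the Hbb-y window held 1 GATA motif. A match is only a description of the letters.

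Hbb-y encodes the embryonic beta-like chain epsilon-y (chromosome 7, 103851754 to 103853207), and its 3 probe sets did not tell the same story. By the brightest, the intensity was 4039, 5377, 8873, 6477 and 13576 in homozygous pools 1 to 5, against 5371, 4920, 5686, 5879 and 5859 in control pools 1 to 5. The homozygous pools thus held both the lowest and the highest value, while the control pools lay close together. The log2 means were 12.78 ± 0.67 in homozygous pools and 12.43 ± 0.11 in control pools (SD, n = 5 each). The log2 difference was 0.34 ± 0.29 (SE; limma adjusted p = 0.634; 95% interval -0.31 to 1.00), and 0.10 without homozygous pool 5. The sign turned when the 3 Xist-high pools were dropped (-0.25) or Xist was a covariate (-0.32).

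In the fit over all probe sets, the second bright probe set of Hbb-y had a log2 difference of 0.33 (limma adjusted p = 0.707). There the brightest had the same adjusted p, and the third probe set had a difference of 0.045 (adjusted p = 1). The name of both bright probe sets ends in x_at, which marks probes that may match other transcripts. On the third, the intensity was 991.4, 972.4, 1518, 1261 and 941.8 in homozygous pools 1 to 5, against 445.9, 923.2, 1456, 1574 and 1573 in control pools 1 to 5. Control pool 1 was lowest of all 10 pools here, whereas on the brightest probe set it lay above control pool 2 and homozygous pool 1. The log2 gap between the brightest and the third probe set reached 3.85 in pool 5 of the homozygous group and 3.59 in pool 1 of the controls, and lay between 1.90 and 2.55 elsewhere. These are the 2 pools of high actin ratio; the part of RNA integrity in the gap was not tested.

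Hbb-bh1 (chromosome 7, 103841638 to 103843162), a further embryonic beta-like globin gene, was dim. By its brightest probe set, the intensity was 112.6, 93.1, 146.3, 84.6 and 123.9 in homozygous pools 1 to 5, against 99.4, 24.2, 56.0, 118.5 and 88.1 in control pools 1 to 5. The groups overlapped, and control pools 2 and 3 were the lowest of the 10. Homozygous minus control, this was 0.70 ± 0.42 on the log2 scale (SE; limma adjusted p = 0.478; 95% interval -0.24 to 1.65). It was 0.33 without control pool 2. In the fit over all probe sets the brightest had a limma adjusted p of 0.572. There the second probe set had a difference of 0.52 (adjusted p = 0.474). The third was at the floor on 5 of the 10 arrays, 4 of them controls, and differed by 0.50 (adjusted p = 0.215).

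**Figure D2:**
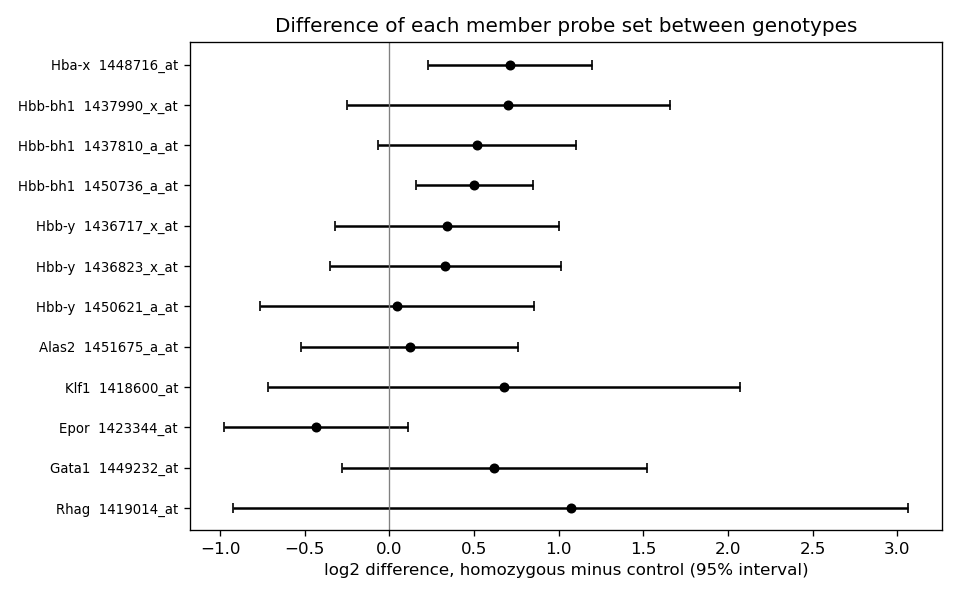
Log2 difference, homozygous minus control, of each of the 12 probe sets, with the 95% interval from limma over all probe sets. The intervals of Hba-x and of the dimmest Hbb-bh1 probe set lie above 0, and the other 10 include 0; none passed after adjustment.

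The bright probe sets of the adult globins are shared by several genes. A probe set annotated to 4 adult beta globin genes together had intensities of 12508 to 18152 in homozygous pools and 9562 to 16202 in control pools. A probe set shared by Hba-a1 and Hba-a2 had 19071 to 21282 in homozygous pools and 18534 to 22713 in control pools; its name ends in x_at too, as does that of the brightest Hbb-bh1 probe set. Both stood among the brightest 625 of 45037 probe sets on every array, and whether such signals were compressed was not tested. Of the probe sets given to 1 adult globin gene alone, those of Hba-a1 and Hba-a2 were at the floor on 6 and 5 arrays. The brighter of the 2 for Hbb-b2, whose name also ends in x_at, was above the floor on all. For Hba-a1, Hba-a2 and Hbb-b2 the log2 differences were -0.014, -0.17 and 0.59 (limma adjusted p = 1, 0.776 and 0.448).

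Within each array, Hba-x was set against the shared adult alpha probe set and the beta-like genes against the shared adult beta probe set, so that array scaling cancels. The log2 ratio of Hba-x to adult alpha averaged -4.93 ± 0.32 in homozygous pools and -5.60 ± 0.35 in control pools (SD, n = 5 each). The difference was 0.67, with all 5 homozygous pools above the control median; exact permutation (two-sided) gave p = 0.0238, or 0.0714 adjusted over the 3 ratios. Against the other 2 probe sets shared by Hba-a1 and Hba-a2, the difference was 0.50 and 0.52 (exact permutation adjusted p = 0.19 and 0.238), an alternative added after the values were seen. The ratio of Hbb-bh1 to adult beta differed by 0.52 (exact permutation adjusted p = 0.583) and that of Hbb-y by 0.16 (exact permutation adjusted p = 0.786). The Hbb-y ratio turned to -0.45 without the 3 Xist-high pools.

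Alas2 encodes the red cell form of the first enzyme of heme synthesis and lies on the X chromosome (150547417 to 150570622). Its intensity was 926.6, 862.6, 596.1, 712.2 and 439.2 in homozygous pools 1 to 5, against 382.6, 513.3, 910.1, 781.6 and 705.0 in control pools 1 to 5. The groups covered nearly the same range, and the lowest value of each group was in its pool of high actin ratio. The log2 difference was 0.12 ± 0.28 (SE; limma adjusted p = 0.884; 95% interval -0.52 to 0.76), and -0.060 without control pool 1. The Xist-high pools held the 3 lowest homozygous values. Adjusted for the actin ratio, the log2 difference was 0.27 (limma adjusted p = 0.318). It was 0.51 with the Xist-high pools dropped and 0.57 with Xist as a covariate, and passed in neither.

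**Figure D3:**
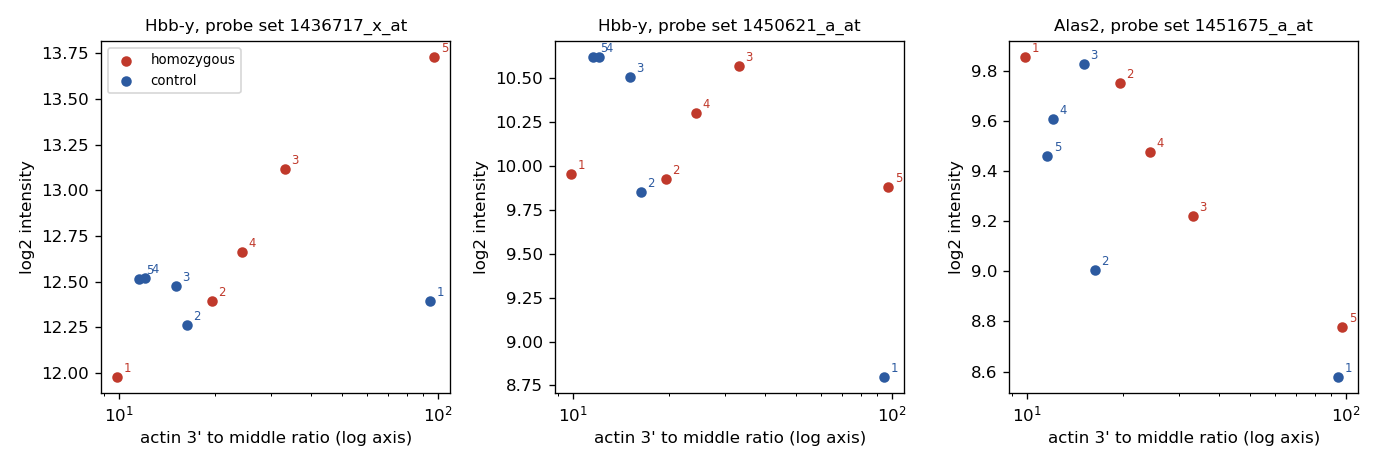
Log2 intensity of 2 Hbb-y probe sets and of Alas2 against the 3' to middle actin ratio (log axis), per pool, with homozygous pools in red, control pools in blue and pool numbers beside the points. At the high-ratio end, homozygous pool 5 is highest on the first Hbb-y probe set but not on the second, and Alas2 is lowest in homozygous pool 5 and control pool 1.

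Klf1, Gata1 and Rhag varied together between pools of the same genotype. Klf1 (chromosome 8, 84901982 to 84905291) encodes a zinc finger factor that activates adult beta globin and other red cell genes. Its intensity was 415.4, 119.0, 171.2, 81.3 and 209.3 in homozygous pools 1 to 5, against 65.0, 68.4, 99.7, 421.4 and 73.7 in control pools 1 to 5. Homozygous pool 1 and control pool 4 stood far above the rest. The log2 difference was 0.68 ± 0.61 (SE; limma adjusted p = 0.663; 95% interval -0.71 to 2.06). It was 1.17 without control pool 4 and 0.36 without homozygous pool 1, and neither passed.

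Gata1, on the X chromosome (7959260 to 7976663), encodes the zinc finger factor required for red cell and platelet precursors. Its intensity was 119.7, 50.5, 77.0, 50.9 and 115.2 in homozygous pools 1 to 5, against 38.3, 33.0, 41.3, 109.4 and 55.7 in control pools 1 to 5. Homozygous pools 1 and 5 and control pool 4 were high, and all others were at 77.0 or below. On the log2 scale Gata1 differed by 0.62 ± 0.39 (SE; limma adjusted p = 0.504; 95% interval -0.27 to 1.51).

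Rhag (chromosome 17, 40811099 to 40844094) encodes the Rh-associated glycoprotein of the red cell membrane, an ammonia channel. Its intensity was 219.8, 47.1, 107.0, 30.0 and 156.5 in homozygous pools 1 to 5, against 16.5, 18.0, 51.4, 282.7 and 29.4 in control pools 1 to 5. The highest value was in control pool 4, although the other 4 controls lay at 51.4 or below. The log2 difference was 1.07 ± 0.87 (SE; limma adjusted p = 0.618; 95% interval -0.90 to 3.04), and 1.76 without control pool 4.

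Across the 10 pools the log2 levels of Klf1 and Rhag had a Pearson r of 0.974 and a Spearman rho of 0.988 (permutation p = 2e-05 and 3e-05; adjusted p = 0.00104 and 0.00156 over 52 relations). Gata1 had r = 0.914 with Klf1 and r = 0.936 with Rhag, each at a permutation adjusted p of 0.00381, and rho = 0.842 and 0.83, each at a permutation adjusted p of 0.0517. Without the 2 pools farthest from the median of the first gene named, r was 0.981 for Klf1 with Rhag, 0.877 for Klf1 with Gata1 and 0.915 for Gata1 with Rhag. Centred on each genotype's mean, the same 3 values of r were 0.971, 0.908 and 0.928. Of the 28 pairs of genes, these 3 had an adjusted p for r under 0.05. Of the embryonic globins, Hbb-bh1 had r = 0.711 and rho = 0.733 with Gata1 (permutation adjusted p = 0.0735 and 0.131; r = 0.659 without the 2 farthest pools). Hba-x had r = 0.33 with Klf1 and 0.467 with Rhag (permutation p = 0.345 and 0.174; rho 0.564 and 0.503), and r = 0.16 and 0.266 without its 2 farthest pools.

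The windows of the 3 genes that varied together are shown, with the same motifs in capitals, at chr8:84901732-84902031 (Klf1, plus strand), chrX:7967861-7968160 (Gata1, minus strand) and chr17:40810899-40811198 (Rhag, plus strand). For Gata1 and Rhag the transcript start used lies inside the gene span given above, not at its edge.
Klf1: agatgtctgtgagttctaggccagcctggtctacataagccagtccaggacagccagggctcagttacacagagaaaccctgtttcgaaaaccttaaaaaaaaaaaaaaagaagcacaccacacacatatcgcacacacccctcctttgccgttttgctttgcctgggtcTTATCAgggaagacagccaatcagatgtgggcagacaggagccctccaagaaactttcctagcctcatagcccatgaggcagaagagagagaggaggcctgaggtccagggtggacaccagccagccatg
Gata1: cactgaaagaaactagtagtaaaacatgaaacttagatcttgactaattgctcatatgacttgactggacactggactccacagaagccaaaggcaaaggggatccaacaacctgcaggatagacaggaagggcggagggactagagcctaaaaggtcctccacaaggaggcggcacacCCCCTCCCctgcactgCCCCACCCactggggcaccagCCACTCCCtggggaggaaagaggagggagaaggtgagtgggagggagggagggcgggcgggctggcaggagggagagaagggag
Rhag: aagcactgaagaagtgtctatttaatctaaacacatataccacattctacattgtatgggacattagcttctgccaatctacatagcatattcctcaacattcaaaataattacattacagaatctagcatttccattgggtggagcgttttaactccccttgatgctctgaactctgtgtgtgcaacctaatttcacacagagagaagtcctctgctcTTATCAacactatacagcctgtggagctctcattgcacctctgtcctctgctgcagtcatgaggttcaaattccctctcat
The Klf1 and Rhag windows each held 1 GATA motif and no CACCC-type motif, and the Gata1 window held 3 CACCC-type motifs and no GATA motif. Windows were matched for 7 of the 8 genes, and 6 of these held a GATA motif, against 29.8% of 32851 windows of the same length. CACCC-type motifs stood in 4 of the 7, against 49.5% of all windows.

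Genes of hepatocytes, the main liver cells, were read beside these 3 genes. Of the 16 hepatocyte genes listed, 14 were measured; 11 were higher and 2 lower in homozygous pools (median log2 difference 0.54), and none passed in limma. Their mean log2 intensity was 9.56, 6.72, 8.56, 6.78 and 6.74 in homozygous pools 1 to 5, against 6.38, 6.57, 6.49, 9.56 and 6.42 in control pools 1 to 5. Homozygous pools 1 and 3 and control pool 4 thus stood apart from the other 7. Alb, which encodes serum albumin, had a log2 intensity of 13.02 and 11.84 in homozygous pools 1 and 3 and 12.97 in control pool 4, and of 9.51 or less in the other 7. Its genotype difference was 1.79 ± 1.28 (SE; limma adjusted p = 0.56), and that of Cps1, a urea cycle enzyme gene, was -0.91 ± 0.62 (adjusted p = 0.538). Not every measured hepatocyte gene split the pools as their mean did. Cps1 was highest in control pool 2, at 8.26, and did not set the pools of high mean apart. Afp, also in this list, was 12.23 in control pool 1, close to the 12.29 of homozygous pool 3. Ahsg, another listed gene, was higher in control pool 3 than in homozygous pool 3. Apoa4 was at the floor on all 10 arrays.

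The fetal liver is where red cell precursors lie beside hepatocytes. Homozygous pool 5 had high Klf1, Gata1 and Rhag while its hepatocyte mean, 6.74, was among the low ones. The log2 gap between Rhag and Alb was -5.24 and -5.10 in homozygous pools 1 and 3 and -4.83 in control pool 4, against -1.94 in homozygous pool 5. In the other pools of low hepatocyte mean this gap varied widely. It was -3.95 and -4.40 in homozygous pools 2 and 4, and -2.52, -4.62, -1.80 and -3.24 in control pools 1, 2, 3 and 5. Among the 7 pools of low hepatocyte mean, r between that mean and Klf1 was 0.61 (rho 0.643; exact permutation p = 0.132 and 0.139; adjusted p = 0.402 and 0.369), and 0.777 without the 2 farthest pools. For Hba-x the same r was 0.796 (rho 0.75, exact permutation p = 0.0476 and 0.0663, adjusted p = 0.209 and 0.313), and 0.655 without the 2 farthest pools. Centred on the mean of each genotype, r over these 7 pools was -0.040 for Klf1, -0.29 for Gata1, -0.034 for Rhag and -0.14 for Hba-x. With the hepatocyte mean as a covariate, the genotype difference was 0.28 for Klf1 and 0.56 for Rhag. Without homozygous pool 1 and control pool 4 it was 0.85 for Klf1 and 1.43 for Rhag, and none of the 8 genes passed in either fit. The part of liver tissue in the levels of Klf1, Gata1 and Rhag was not tested.

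**Figure D4:**
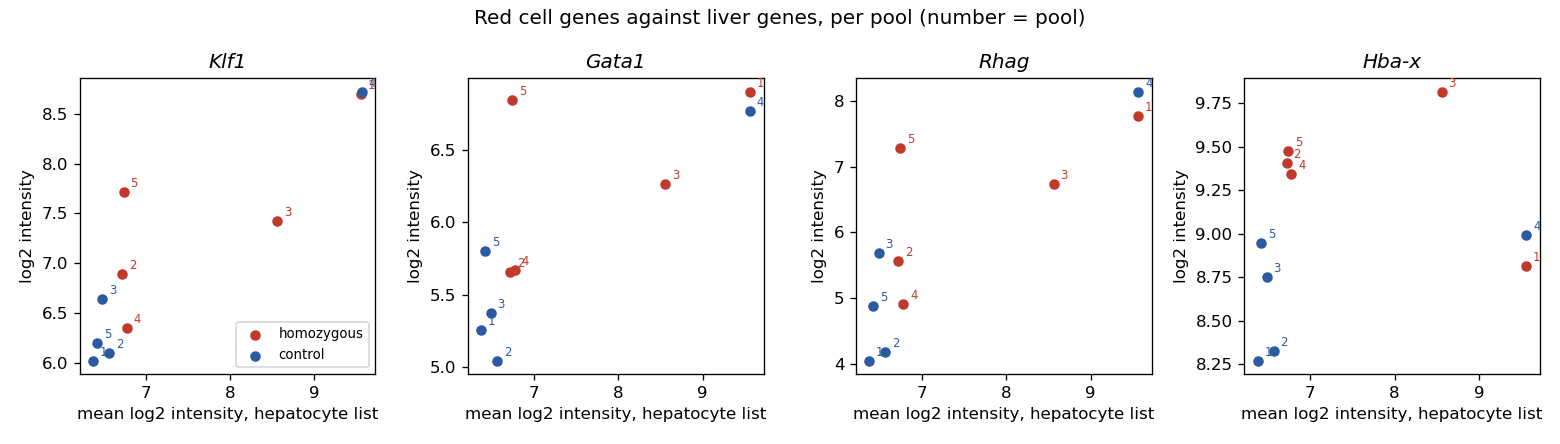
Log2 intensity of Klf1, Gata1, Rhag and Hba-x against the mean log2 intensity of 14 hepatocyte genes, per pool, with homozygous pools in red and control pools in blue. Homozygous pool 1 and control pool 4 lie at the upper right for the first 3 genes, homozygous pool 5 is high with a hepatocyte mean of 6.74, and Hba-x is not highest where the hepatocyte mean is highest.

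Genes of white blood cells also varied between pools of the same genotype. The mean of 10 measured genes of neutrophils and other white cells ran from 6.44 to 7.83 in homozygous pools and from 5.33 to 7.56 in control pools. Its r with Rhag was 0.857 (rho 0.879; permutation adjusted p = 0.0318 and 0.04) and 0.761 without the 2 farthest pools. With Klf1 it was 0.764 (rho 0.83; permutation adjusted p = 0.0827 and 0.0517), and 0.684 without the same pools. Cd3e, the T cell marker of the list, was at the floor on all 10 arrays.

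Epor (chromosome 9, 21958897 to 21963576) encodes the erythropoietin receptor, through which the hormone erythropoietin keeps red cell precursors alive. Its intensity was 96.6, 140.0, 63.7, 59.4 and 90.6 in homozygous pools 1 to 5, against 114.7, 94.6, 117.6, 132.1 and 123.6 in control pools 1 to 5. Homozygous pool 2 was highest of all, and the other 4 homozygous pools lay below 4 of the 5 controls. On the log2 scale Epor differed by -0.43 ± 0.24 (SE; limma adjusted p = 0.449; 95% interval -0.98 to 0.11). It was 0.0060 with the 3 Xist-high pools dropped, and 0.036 with Xist as a covariate. Epor had r = 0.0583 with Klf1 (rho 0.0909; permutation p = 0.875 and 0.812), and -0.26 without the 2 farthest pools.

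The remaining genes of the red cell program were read from 7 lists, and no gene of these lists passed in limma. The counts at an unadjusted p under 0.05 that follow stand against 15.7% of all genes, and those of higher genes against 50%. Of 22 red cell regulators 13 were higher and 9 lower in homozygous pools, with a median log2 difference of 0.19 against 0.00 for all genes, and 4 had an unadjusted p under 0.05. Myb, the factor of dividing blood precursors, differed by -1.26 ± 0.30 (SE; limma adjusted p = 0.0864), with all homozygous pools below all control pools. The groups were apart, in either direction, in 4.71% of all genes. Ikzf1, a zinc finger factor of blood cells, differed by 0.72 ± 0.22 (SE; adjusted p = 0.152).

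Membrane and skeleton genes were higher in 17 of 19 cases, with a median of 0.45 and 3 at an unadjusted p under 0.05, a share close to that of all genes. Add2, which encodes the adducin beta of red cells and neurons, differed by 1.93 ± 0.47 (SE, limma adjusted p = 0.0864). Bcam, which encodes a laminin-binding blood group protein, differed by 1.08 ± 0.26 (SE, limma adjusted p = 0.09) and was at the floor on 2 control arrays. Heme synthesis genes were higher in 4 of 13 cases, with a median of -0.048 and 1 at an unadjusted p under 0.05. Fech, whose enzyme puts iron into heme, differed by 0.35 ± 0.076 (SE; limma adjusted p = 0.0707), with all homozygous pools above all control pools, as for 2.61% of all genes. Cpox, of an earlier step, differed by -0.59 ± 0.30 (adjusted p = 0.389).

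Iron genes were higher in 6 of 14 cases, with a median of -0.12 and 4 at an unadjusted p under 0.05. The iron importer gene Slc11a2 differed by -0.53 ± 0.14 (SE; limma adjusted p = 0.112) and Tfr2, the second transferrin receptor gene, by 0.44 ± 0.17 (adjusted p = 0.257). Erythropoietin and stem cell factor signalling genes were higher in 6 of 12 cases, with a median of 0.017 and 2 at an unadjusted p under 0.05. Beside Tfr2, its smallest p belonged to Socs2, a feedback inhibitor of cytokine signalling, at 0.50 ± 0.21 (adjusted p = 0.291). Red cell enzyme and late erythroblast genes were higher in 8 of 20 cases, with a median of -0.053 and 2 at an unadjusted p under 0.05. These were Tspo2 (0.86, limma adjusted p = 0.268) and the arginase gene Arg2 (-0.72, adjusted p = 0.175). Tspo2 was at the floor on 4 arrays, all of them controls.

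**Figure D5:**
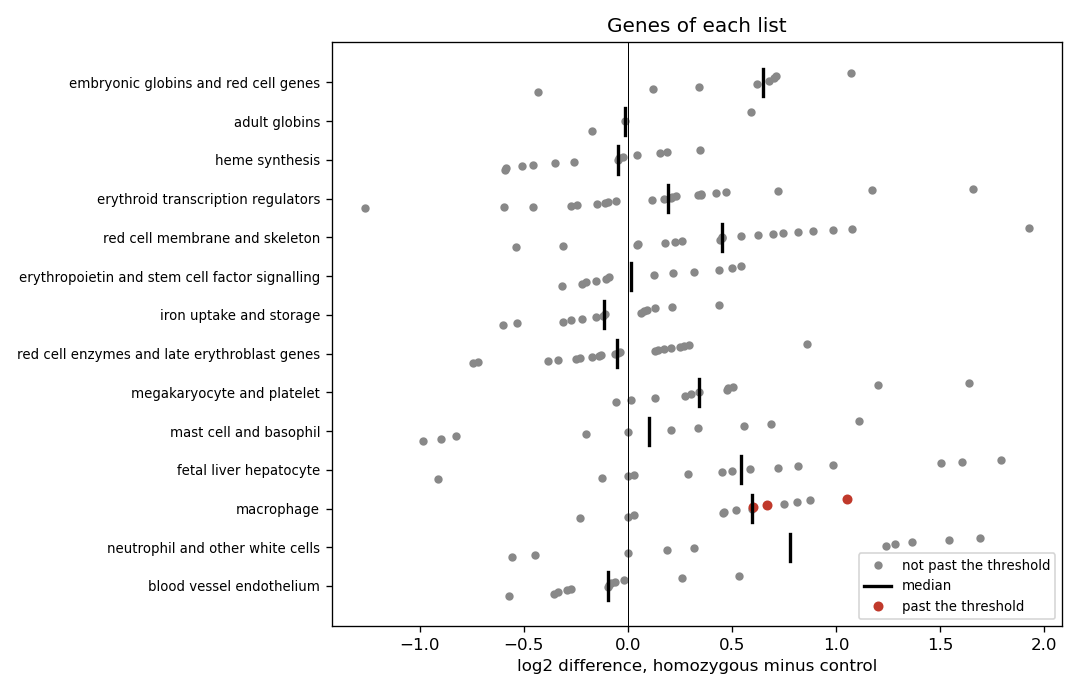
Log2 difference, homozygous minus control, of every measured gene in each list, with black bars at the list medians and red points for genes past adjusted p under 0.05. The median is 0.65 for the 8 red cell genes, and the 3 red points are macrophage genes.

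Genes whose pattern was most like that of these genes were ranked by Pearson r over 10 arrays, among 9117 genes with a mean log2 intensity of at least 8, as a description. For the mean of the 3 embryonic globins these were Peg3 (0.940), Man1c1 (0.932), Dusp1 (0.912), Dock11 (0.905), Laptm5 (0.894) and Zeb1 (0.889). For Alas2 they were Dpm1 (0.968), Pex3 (0.947), Vps4a (0.947), Snrpd3 (0.941), Slc25a37 (0.937) and Tceal8 (0.936). Slc25a37 encodes mitoferrin 1, which carries iron into red cell mitochondria. For Klf1, Gata1 and Rhag, a set chosen after the values were seen, the ranking among 14173 genes with a mean of at least 5 began with Hemgn (0.975), 1300017J02Rik (0.943), Slc4a1 (0.942), F2 (0.941) and Ermap (0.939). Prg2 (0.926), Serpinc1 (0.924), Apoc2 (0.919), Rhd (0.910), Vtn (0.907), Apoa2 (0.900) and Apoh (0.896) came next. Of these, Hemgn is in the list of red cell regulators. Slc4a1, Ermap and Rhd are in the membrane and skeleton list, and Apoa2 is in the hepatocyte list.

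Hemgn encodes a nuclear protein of blood precursors, Slc4a1 the red cell anion exchanger, Ermap a red cell surface protein and F2 the liver-made prothrombin. The log2 intensity of Hemgn was 9.06, 6.08, 8.03, 5.78 and 9.02 in homozygous pools 1 to 5, against 4.00, 4.00, 6.52, 9.26 and 5.91 in control pools 1 to 5. It was at the floor in control pools 1 and 2, where Rhag was lowest as well. The log2 difference of Hemgn was 1.66 (limma adjusted p = 0.542). It was 2.49 without control pool 4, 0.82 without homozygous pool 5 and control pool 1, and 0.55 with array weights, and passed in none of its 23 alternatives.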

How the data were processed

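Total RNA (Trizol, 1 ug per pool) was amplified and labelled, per the labels; the design text of the series gives an Affymetrix mouse array but an earlier stage and another allele, and the sample labels were followed. Each probe set has 1 deposited intensity per array, on a linear scale; the 2% trimmed mean did not differ between arrays; software is not given in the sources used here, and detection calls were not used here. Of 45101 probe sets, 64 controls were left out; 34945 had 1 symbol, 932 several and 9160 none here. Intensities below 16 were set to 16 and taken to log2. Each gene was represented by its brightest probe set.

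limma 3.58.1 (R 4.3.3; lmFit, then eBayes with intensity trend) set the homozygous against the control pools, two-sided, Benjamini-Hochberg adjusted over all genes or probe sets, and tested on simulated data. Exact permutation tests covered single genes and globin ratios; correlations over 10 pools used 100000 permutations. For the hepatocyte mean and the actin ratio, pools that stood apart were left out of r. Nothing says that pools came from separate litters, so p-values reflect only how these pools spread, which may be technical. Members and 13 gene lists were chosen with earlier results of these data known. The text names the 9 members, of each list the 2 genes of smallest p and up to 5 past the threshold, all adult globins and the 6 genes most like the embryonic globins or Alas2. Alternatives concerned probe set choice, dim genes, normalization, floor, block, trend, array weights, actin ratio, Xist and left-out pools; those on liver genes and on other adult alpha probe sets were chosen after seeing the data. Sequences are from RefSeq (GRCm38.p6).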

Additional observations from a re-analysis of the deposited data

Results flagged for a closer look

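Klf1 in control pool 4 had a log2 intensity of 8.719 (421.4 on the linear scale), far above the other 4 control pools at 65.0 to 99.7. Its gap to the nearest of them was 0.771 of the range of the group, above Dixon's 95% critical value of 0.71 for 5 values. Of 22 combinations of a gene or globin ratio with a genotype this was the only instance; chance gives about 1 in 20.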

How the results depend on the processing

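None of the 8 genes passed in any of the 24 alternatives; without the dimmest 60% of genes only Hba-x, Hbb-y and Alas2 were tested. Of the 12 probe sets 1 passed with array weights, the dimmest probe set of Hbb-bh1 (log2 difference 0.58, limma adjusted p = 0.0439), and none in the others run. Over all genes 176 passed in limma, against 109 with the mean of the probe sets, 108 without the dimmest 60%, 95 with a floor of 32, 951 with array weights, 23 without homozygous pool 5 and control pool 1 (high actin ratio), 489 with the actin ratio as a covariate, 28 when the 3 Xist-high pools were dropped and 13 with Xist as a covariate. It was 17 with the hepatocyte mean as a covariate and 4 without homozygous pool 1 and control pool 4. Leaving out single pools gave 3 to 414; the cause was not tested. With the replicate block 1 gene passed. The deviations of same-numbered pools from their genotype means had correlations of -0.55 to -0.17, so no likeness of same-numbered pools was seen. Directions were opposite for the Hbb-y ratio to adult beta when the high actin ratio arrays (-0.043) or the 3 Xist-high pools (-0.45) were dropped, and single pools left out gave -0.17 to 0.35. They were opposite for Hbb-y (-0.25 and -0.32) and Epor (0.0060 and 0.036) when Xist-high pools were dropped and when Xist was a covariate, and for Alas2 without control pool 1 (-0.060). Hba-x stayed between 0.44 and 0.94, Klf1 between 0.28 and 1.17, Gata1 between 0.29 and 0.90 and Rhag between 0.36 and 1.76. Precision is limited by the number of arrays.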

Other observations

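Other blood and vessel cells were read from their own lists. Of 13 macrophage genes 11 were higher and 1 lower in homozygous pools, 1 was at the floor on all arrays, and 3 rose, where 50% of all genes were higher and 0.539% rose. Timd4, a receptor of resident macrophages, rose by 1.05 ± 0.15 on the log2 scale (SE; limma adjusted p = 0.0317). Adgre1, a macrophage surface receptor gene, rose by 0.67 ± 0.11 (adjusted p = 0.0374), and Csf1r, the receptor gene for macrophage growth factor, rose by 0.60 ± 0.11 (adjusted p = 0.0472). For each of the 3, all homozygous pools lay above all control pools, as for 2.61% of all genes. These calls were often lost: Timd4 passed in 7 of 23 alternatives, Adgre1 in 9 of 23 and Csf1r in 7 of 24, while the difference kept its sign in each. Timd4 was at the floor on 2 control arrays, and with a floor of 32 its difference was 0.32.

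No gene of the other 4 lists passed in limma. Of their genes only Pf4, Vwf and Cpa3 were followed through the alternatives. Pf4 passed in 5 of 24, with a limma adjusted p of 0.0269 at the lowest. Vwf passed in 1 of 23 (limma adjusted p = 0.0443 with the actin ratio as a covariate), and Cpa3 in 0 of 24. Megakaryocyte and platelet genes were higher in 10 of 11 cases, with a median log2 difference of 0.34. This count and those that follow stand against 50% of all genes higher and 8392 of 18193 lower. Pf4, a platelet chemokine gene, differed by 1.20 ± 0.24 (SE; limma adjusted p = 0.0583) and Vwf, of platelets and endothelium, by 1.64 ± 0.42 (adjusted p = 0.0991). Both had no overlap of the groups with the homozygous pools higher, as for 2.61% of all genes. Of 10 mast cell genes 5 were higher and 4 lower, and the leading ones went opposite ways. Cpa3, a mast cell protease gene, differed by 1.11 ± 0.34 (SE; limma adjusted p = 0.158) and Hdc, whose enzyme makes histamine, by -0.99 ± 0.19 (adjusted p = 0.0558). For Hdc all homozygous pools lay below all control pools, where 4.71% of all genes had groups apart in either direction. Of 10 white cell genes 7 were higher and 2 lower; the neutrophil enzyme gene Mpo differed by 1.37 ± 0.61 (SE; limma adjusted p = 0.321) and the B cell gene Cd79a by -0.56 ± 0.29 (adjusted p = 0.407). Of 12 endothelial genes 10 were lower (median -0.094). Plvap, of fenestrated vessels, differed by -0.57 ± 0.21 (SE; limma adjusted p = 0.233) and Flt1, a VEGF receptor gene, by 0.53 ± 0.40 (adjusted p = 0.582).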
